A study of Mus musculus with 6 samples.

Results

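The miR-17-92 and miR-106b-25 clusters are paralogous groups of microRNAs (miRNAs), and 7 of their mature products were followed here through the left ventricles of mice with a myosin mutation. The members were the rows named mmu-miR-17, mmu-miR-17*, mmu-miR-19b and mmu-miR-20a, of the miR-17-92 cluster, and mmu-miR-106b, mmu-miR-93 and mmu-miR-25, of the miR-106b-25 cluster, where mmu stands for mouse and an asterisk for the minor arm of a hairpin. They were taken by name from both deposited tables, and are 7 of 698 listed miRNAs. The study sequenced small RNA from 2 groups of 3 left ventricles each. One group came from mutant mice with the genotype aMHC719/+, carrying the R719W mutation in Myh6, called R719W here, and the other from WT mice. Myh6 encodes the α-myosin heavy chain of the mouse ventricle, and the study presents the mutant as a mouse model of hypertrophic cardiomyopathy (HCM), in which the heart muscle thickens. Both groups were on cyclosporin, which blocks the phosphatase calcineurin, for 3 weeks, and mice without the drug were not analysed here. Each library is labelled as a biological replicate. The sources used here give no age, sex or strain.

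Both clusters are transcribed as single precursors that are cut into several hairpins, each giving up to a pair of mature arms. The miR-17-92 precursor is driven by Myc and is known as an oncogenic miRNA cluster, and in mice it promotes the proliferation of cardiomyocytes. The miR-106b-25 hairpins lie in an intron of Mcm7, a subunit of the helicase that licenses DNA replication, and are transcribed with it. miR-17, miR-20a, miR-93 and miR-106b repress the cell cycle inhibitor Cdkn1a and the pro-apoptotic gene Bcl2l11, and miR-25 has been reported to repress the calcium pump Atp2a2 in mouse heart.

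The sequences show how the members fall into groups by seed, the bases 2 to 8 that pair with target RNAs. They are written as in the deposited tables, 5′ to 3′ as DNA, with the seed in capitals.
miR-17: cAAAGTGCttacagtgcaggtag
miR-20a: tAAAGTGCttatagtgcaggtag
miR-93: cAAAGTGCtgttcgtgcaggtag
miR-106b: tAAAGTGCtgacagtgcagat
miR-25: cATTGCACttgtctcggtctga
miR-19b: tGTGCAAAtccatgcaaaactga
miR-17*: aCTGCAGTgagggcacttgtag
Of the 7 members, 4 share the seed AAAGTGC, across both clusters, while miR-25, miR-19b and miR-17* each have a seed of their own. Counting from 1 at the 5′ end, miR-17 and miR-20a differ by the substitutions C1T and C12T, neither of them in the seed. All 7 matched a RefSeq mature sequence exactly (GRCm38.p6). The mature arms of the miR-17-92 hairpins span 813 bases of chromosome 14, from 115043684 to 115044496 on the plus strand, within an exon of the noncoding gene Mir17hg (GENCODE M21). Those of miR-25, miR-93 and miR-106b span 476 bases of chromosome 5, from 138165332 to 138165807 on the minus strand. These 3 hairpins lie in an intron of both protein-coding Mcm7 transcripts that cover them, and those of miR-25 and miR-93 also in an exon of a transcript that retains introns. Among the members, miR-19b alone has a second source, the hairpin Mir19b-2 on chromosome X, so its reads cannot be assigned to a single cluster.

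miR-17 and miR-17* are opposite arms of a single hairpin, which is shown because these arms did not keep a fixed ratio between libraries. It lies on chromosome 14 from 115043671 to 115043754 (plus strand, RefSeq, GRCm38.p6), and its arms are in capitals, miR-17 first and miR-17* second, in RNA letters.
Mir17: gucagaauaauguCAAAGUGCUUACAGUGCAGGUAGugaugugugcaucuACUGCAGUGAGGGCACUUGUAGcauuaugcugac

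Depth on listed miRNAs was 1032928, 1168379 and 865845 reads for R719W replicates 1, 2 and 3, against 817935, 765425 and 1192020 in WT replicates 1, 2 and 3. Levels below are counts per 1000000 reads (CPM) scaled by the trimmed mean of M-values (TMM), unless named as deposited CPM, which are scaled by the library total alone. Without molecular identifiers, intervals cover counting error only. Of 6 miRNAs known from cardiomyocytes, 5 reached the filter on low counts, miR-1 being by far the most abundant, and miR-133b had at most 6 reads in a library. Of these 5, 1 fell in R719W by edgeR, mmu-miR-499 (log2 fold change −1.14, SE 0.20; adjusted p = 0.00808). The neuronal miR-124 had no read and the liver miRNA miR-122 had at most 1 read in a library. R719W replicate 1 stood apart from the other R719W libraries: on the second principal component, 23.7% of the variance, it lay at 5.33, against −4.43 and −2.68 for R719W replicates 2 and 3. There, let-7 miRNAs made up 20.4% of reads, against 11.8% and 13.5% for R719W replicates 2 and 3 and 7.51% to 11.6% for WT. Fold changes, spreads and ratios of the members are therefore given also without it, and sums and shares library by library. In whole tissue, fewer cells of a type and less RNA per cell cannot be told apart.

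The members were low to moderately abundant miRNAs of these ventricles, and they covered a wide range of levels. Together they took 901, 1866 and 1671 deposited CPM in R719W replicates 1, 2 and 3, against 1603, 1589 and 1571 in WT. On deposited CPM, the R719W libraries thus spread on both sides of the WT libraries, which lay close together. On the TMM scale, the miR-17-92 members summed to 409, 806 and 606 CPM in R719W, against 815, 689 and 927 in WT. The miR-106b-25 members summed to 539, 938 and 760 CPM in R719W, against 959, 794 and 966 in WT. In both of these sums, R719W replicates 1 and 3 lay below the WT libraries and R719W replicate 2 among them. By mean level over the 6 libraries, miR-93 ranked 48th and miR-20a 54th of the 698 listed miRNAs, followed by miR-17 (78th), miR-106b (84th), miR-25 (113th), miR-19b (171st) and miR-17* (172nd). Such ranks also depend on how readily a sequence enters the library. miR-93 lay above miR-20a in 3 of 3 R719W and 3 of 3 WT libraries, although their ranges overlapped in both groups. miR-20a lay above miR-17 in every library, with ranges that overlapped in R719W and not in WT. miR-17 and miR-106b overlapped in both groups, with miR-17 the higher in 2 of 3 R719W and 3 of 3 WT libraries. miR-25 lay below both in every library, without overlap with miR-106b above it or miR-19b below it. miR-19b and miR-17* overlapped in R719W and not in WT.

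**Figure D1:**
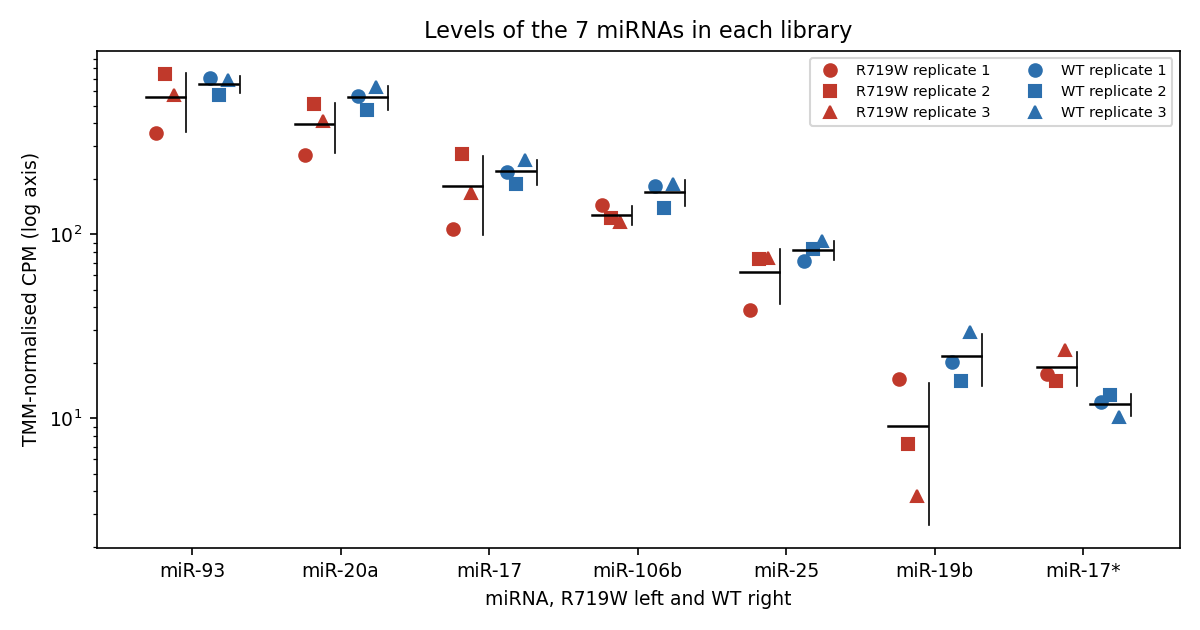
Levels of the 7 miRNAs in TMM-normalised CPM on a log axis, R719W left and WT right; points are libraries, horizontal bars means and vertical bars SD (n = 3). Only for miR-17* do the R719W libraries, 16.0 to 23.6, lie wholly above the WT libraries, 10.1 to 13.4.

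In the miR-17-92 cluster, none of the 4 members passed the test between genotypes, and the 2 members of lowest level pointed in opposite directions. mmu-miR-20a, the most abundant of them, stood at 269, 510 and 410 CPM in R719W replicates 1, 2 and 3, against 563, 473 and 633 CPM in WT. R719W replicates 1 and 3 lay below all WT libraries and R719W replicate 2 within them. The means were 396 ± 121 CPM in R719W and 556 ± 79.9 in WT (SD, n = 3; edgeR log2 fold change −0.49, SE 0.25, adjusted p = 0.168). miR-17, which shares the seed of miR-20a, had 107, 273 and 168 CPM in R719W and 219, 187 and 255 CPM in WT. The highest and the lowest of these 6 values were both R719W libraries. Its log2 fold change was −0.27 (SE 0.31; 95% interval −0.97 to 0.44; edgeR adjusted p = 0.527).

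mmu-miR-19b, the member with the miR-19 seed, had the log2 fold change of largest size among the 7 members. It was counted by 16, 9 and 4 reads in R719W replicates 1, 2 and 3, against 15, 13 and 29 reads in WT. These are 16.3, 7.20 and 3.77 CPM in R719W and 20.3, 15.9 and 29.3 CPM in WT, so that R719W replicate 1 overlapped WT replicate 2. The mean was 9.09 ± 6.47 CPM in R719W and 21.8 ± 6.85 in WT (SD, n = 3). Its log2 fold change was −1.30 (SE 0.47; 95% interval −2.36 to −0.24), with an edgeR adjusted p of 0.0843, so it did not pass. miR-19b reached the 10.5 CPM asked by the filter on low counts in 3 WT libraries and 1 R719W library. It was therefore tested because of its level in WT, and a lower value in R719W is in part built into that choice. Its counts are small, and exact Clopper-Pearson 95% intervals of deposited CPM were wide. They ran from 1.26 to 11.8 in R719W replicate 3 and from 16.3 to 34.9 in WT replicate 3, the lowest and highest libraries. In R719W replicate 1 and WT replicate 2 they overlapped, at 8.85 to 25.2 and 9.04 to 29.0.

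mmu-miR-17*, the passenger arm of the miR-17 hairpin, was the only member with a positive log2 fold change relative to TMM. It had 17, 20 and 25 reads in R719W, against 9, 11 and 10 reads in WT. On the TMM scale these were 17.3, 16.0 and 23.6 CPM in R719W and 12.2, 13.4 and 10.1 CPM in WT, and the groups did not overlap. The means were 18.97 ± 4.05 CPM in R719W and 11.9 ± 1.67 in WT (SD, n = 3; edgeR log2 fold change 0.67, SE 0.32, adjusted p = 0.145). miR-17* reached the filter in 3 R719W libraries and 2 WT libraries, the reverse of miR-19b, so a higher value in R719W may be in part built into that choice. Its share of the reads of its hairpin was 13.9%, 5.54% and 12.3% in R719W replicates 1, 2 and 3, against 5.26%, 6.71% and 3.82% in WT. The exact Clopper-Pearson 95% interval was 8.33% to 21.4% in R719W replicate 1 and 1.85% to 6.91% in WT replicate 3, the highest and lowest libraries. In R719W replicate 3 and WT replicate 2 the intervals overlapped, at 8.13% to 17.6% and 3.40% to 11.7%. R719W replicate 2 lay among the WT libraries.

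In the miR-106b-25 cluster, none of the 3 members passed, and each log2 fold change was negative relative to TMM. mmu-miR-93, the most abundant member of all, stood at 356, 742 and 569 CPM in R719W replicates 1, 2 and 3, against 704, 572 and 687 CPM in WT. It was lowest in R719W replicate 1 and highest in R719W replicate 2, and its log2 fold change was −0.23 (SE 0.26; 95% interval −0.83 to 0.36; edgeR adjusted p = 0.507). miR-25, reported to repress the calcium pump gene Atp2a2, stood at 38.7, 73.6 and 74.5 CPM in R719W, against 71.7, 82.9 and 91.96 CPM in WT. Again R719W replicate 1 was the lowest library, and the other R719W libraries lay within the range of WT (edgeR log2 fold change −0.40, SE 0.27, adjusted p = 0.283).

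mmu-miR-106b behaved differently from its cluster mates in R719W replicate 1. It stood at 145, 122 and 116 CPM in R719W replicates 1, 2 and 3, against 184, 139 and 187 CPM in WT. The means were 128 ± 15.02 CPM in R719W and 170.0 ± 26.9 in WT (SD, n = 3; edgeR log2 fold change −0.41, SE 0.21, adjusted p = 0.163). R719W replicate 1 overlapped WT replicate 2 on this scale. As deposited CPM, miR-106b was 137, 131 and 142.1 in R719W and 166, 149 and 155.2 in WT, without overlap.

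With edgeR's quasi-likelihood F-test, adjusted by Benjamini-Hochberg over all tested miRNAs, 0 of the 7 members passed an adjusted p of 0.05, where 19.9% of the 181 tested miRNAs passed (36, of which 23 were higher and 13 lower in R719W). At an unadjusted p below 0.05, 1 of the 7 was counted, miR-19b, against 37.6% of all tested. DESeq2 also passed 0 of the 7, where 15.8% of the 177 miRNAs it tested passed. It had 2 members at an unadjusted p below 0.05, against 60 of the 177. limma on log2 of the deposited CPM plus 1 passed 0 of the 7, where 16.6% of all tested passed. It had 2 members at an unadjusted p below 0.05, against 67 of the 181 tested. A missed threshold does not show equal levels, and the 95% intervals of the log2 fold change reached down to −1.05 for miR-20a and −1.01 for miR-25. The members had a median log2 fold change of −0.40, against 0.10 for all tested miRNAs, and 6 of the 7 were negative, against 45.3% of all tested. Groups did not overlap for 1 member on the TMM scale, miR-17*, where 40.9% of all tested miRNAs did not overlap. On the deposited CPM, 3 of the 7 did not overlap (miR-17* higher, miR-19b and miR-106b lower in R719W), against 39.2% of all tested, a share of the members near that of all tested.

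The spread among R719W libraries was larger than among WT libraries for 6 of the 7 members. The share of all tested miRNAs with a larger spread in R719W was not counted. Over all tested miRNAs, chi-square per degree of freedom was 153 to 350 between R719W libraries and 35.8 to 145 between WT libraries. That measure is weighted by the most abundant miRNAs. Whether a wider spread in R719W was particular to the members was therefore not tested. The coefficient of variation of the TMM-normalised level was 45.9% in R719W and 15.5% in WT for miR-17, 34.9% and 11.0% for miR-93, 32.8% and 12.3% for miR-25, and 30.5% and 14.4% for miR-20a. For miR-106b it was 11.8% in R719W and 15.8% in WT. Between R719W replicates 2 and 3 alone, it was larger than in WT for 5 of the 7 members, at 33.6% for miR-17 and 18.7% for miR-93, but 0.893% for miR-25 and 3.77% for miR-106b. R719W replicate 1 was low for 4 members: its miR-17, miR-25, miR-93 and miR-20a stood at 0.485, 0.523, 0.542 and 0.585 times the mean of R719W replicates 2 and 3. In the same library miR-17* stood at 0.875, miR-106b at 1.21 and miR-19b at 2.97 times that mean. Members of both clusters were thus low there together, and each cluster also had a member that was not.

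**Figure D2:**
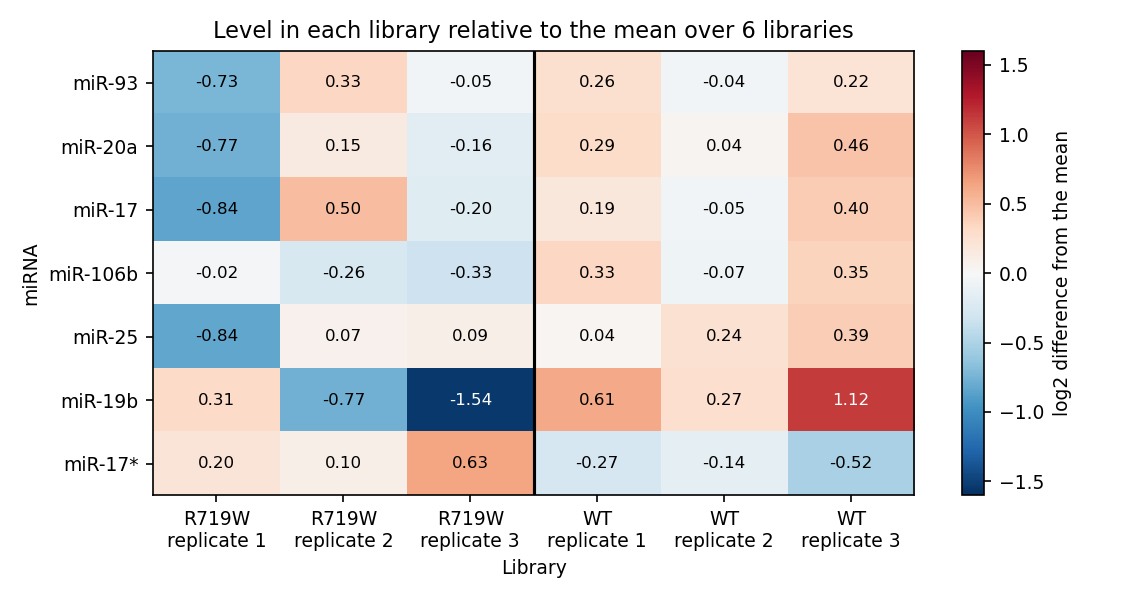
Log2 level of each miRNA in each library, centred on its mean over the 6 libraries, R719W left of the line and WT right. R719W replicate 1 is low, at −0.73 to −0.84, for miR-93, miR-20a, miR-17 and miR-25, but at −0.02 for miR-106b, 0.31 for miR-19b and 0.20 for miR-17*.

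Directions within the group depended in part on the scaling of the counts. Relative to TMM, the log2 fold changes of all tested miRNAs moved by a median of −0.11 with DESeq2's size factors and of 0.21 with library totals alone. With library totals alone, miR-93 turned to 0.01 (SE 0.32) and miR-17 stood at −0.02, so that 5 of the 7 members were negative. miR-20a, miR-25 and miR-106b were at −0.24, −0.16 and −0.20 in that fit, miR-19b at −1.09 and miR-17* at 0.89. Every member but miR-93 therefore kept its direction under every scaling run. The fold changes of the 5 more abundant members were at most 0.24 in size when libraries were compared by their totals. With library totals alone the median was −0.16 for the members and 0.32 for all tested miRNAs, against −0.40 and 0.10 relative to TMM. The median of the members thus lay below that of all tested miRNAs under either scaling. By edgeR, 0 of the 7 passed with DESeq2's size factors, where 14.9% of all tested passed, 0 with library totals alone (20.4%) and 0 when the 5 miRNAs of highest level were left out of the totals (11.0%). At an unadjusted p below 0.05 there were 3, 2 and 1 members in these fits, against 69, 76 and 62 of the 181 tested miRNAs.

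**Figure D3:**
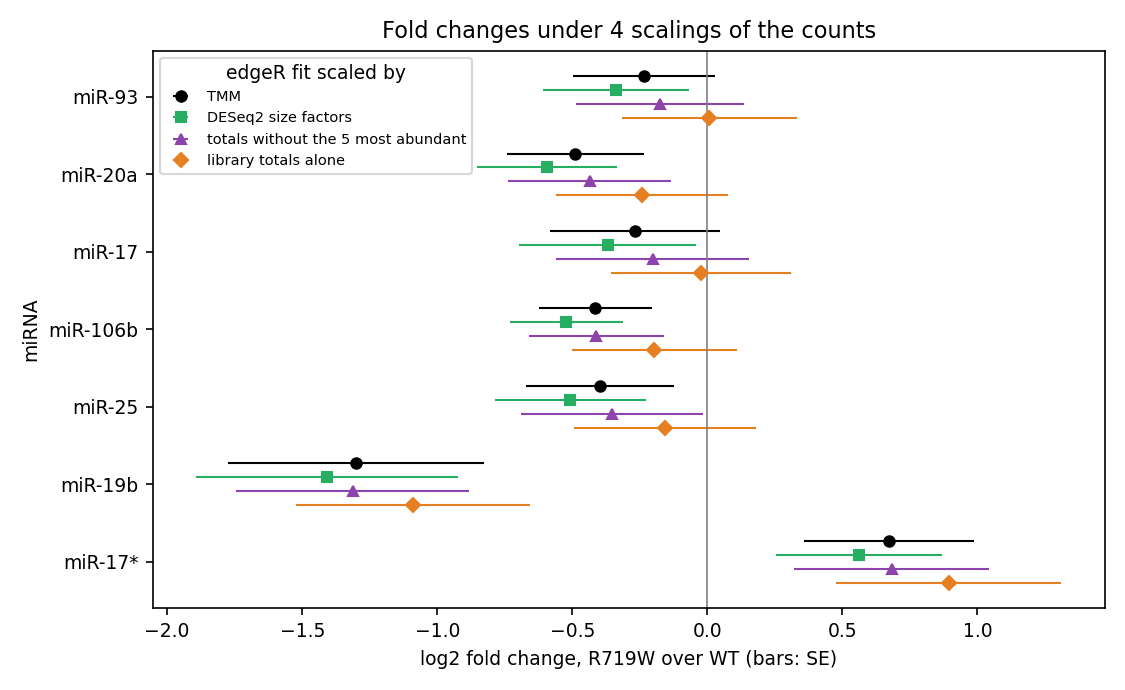
Log2 fold change of each miRNA, R719W over WT, with its SE, in edgeR fits that differ only in how the counts were scaled. miR-93 lies at −0.23 relative to TMM and at 0.01 with library totals alone, while miR-19b stays between −1.41 and −1.09.

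Single R719W libraries moved the fold changes of several members. Without R719W replicate 1, miR-17 and miR-93 both went to a log2 fold change of −0.03, miR-20a to −0.31 and miR-25 to −0.20. miR-106b went to −0.55 (edgeR adjusted p = 0.0516) and miR-19b to −2.001 (SE 0.45; edgeR adjusted p = 0.00134), a call, in a fit where 30.6% of the tested miRNAs passed. miR-17* remained at 0.68. In this fit 2 members were at an edgeR unadjusted p below 0.05, against 77 of the 183 miRNAs tested. Without R719W replicate 2, miR-17 went to −0.79 and miR-93 to −0.61, and miR-20a passed at −0.82 (SE 0.25; edgeR adjusted p = 0.0416), where 21.7% of the tested miRNAs passed. That fit had 4 of the 7 members at an edgeR unadjusted p below 0.05, against 75 of the 184 miRNAs tested. Without R719W replicate 3, 0 of the 7 members passed, where 3.70% of the tested miRNAs did. In that fit 0 members were at an unadjusted p below 0.05, against 55 of the 189 miRNAs tested. 0 of the 7 also passed without WT replicate 1 (2.07% of the tested miRNAs), WT replicate 2 (10.6%) or WT replicate 3 (2.15%). These fits had 1, 2 and 0 members at an unadjusted p below 0.05, against 48 of 193, 62 of 189 and 47 of 186 tested. With all 6 libraries, miR-19b passed without the filter on low counts (−1.39, SE 0.39; edgeR adjusted p = 0.00681; 12.4% of the tested miRNAs passed). Across the 6 fits that left out a library, miR-19b ranged from −2.001 to −0.99 and miR-17* from 0.44 to 0.76.

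**Figure D4:**
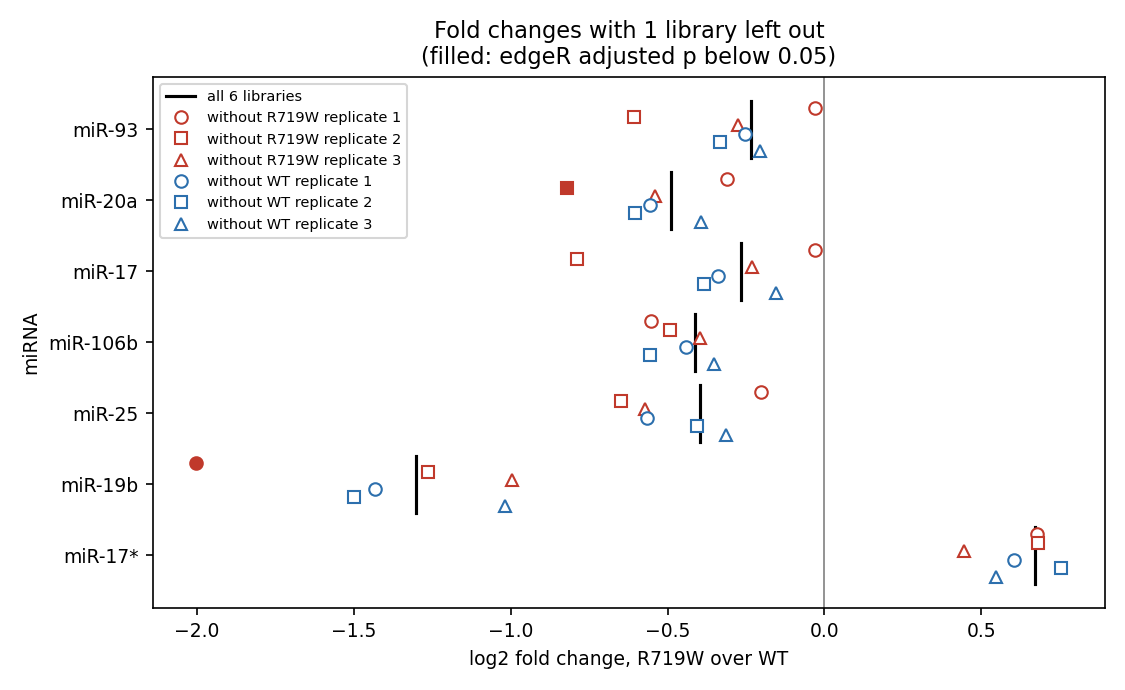
Log2 fold change, R719W over WT, with all 6 libraries (black line) and with 1 library left out (red for R719W, blue for WT; filled where the edgeR adjusted p was below 0.05). Only miR-19b without R719W replicate 1, at −2.001, and miR-20a without R719W replicate 2, at −0.82, are filled.

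Ratios between members of a cluster were compared because they do not depend on the scaling of a library. The ratio of miR-20a to miR-17, neighbours with a shared seed, was 2.51, 1.87 and 2.44 in R719W and 2.57, 2.54 and 2.48 in WT. It was almost fixed in WT (log2 ratio 1.34 ± 0.02, SD, n = 3) and lay below WT replicate 3 in R719W replicates 2 and 3 (1.17 ± 0.24, SD, n = 3). The ratio of miR-93 to miR-106b was 2.46, 6.07 and 4.90 in R719W replicates 1, 2 and 3, against 3.82, 4.11 and 3.68 in WT. R719W replicate 1 lay below all WT libraries and the other R719W libraries above them. The ratio of miR-25 to miR-93, by contrast, ranged from 0.0991 to 0.131 in R719W and from 0.102 to 0.145 in WT, and R719W replicate 1 was inside the WT range at 0.109.

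The miR-17* to miR-17 ratio, between the arms of the hairpin, had a log2 difference of 1.02 (−3.18 ± 0.79 in R719W, −4.21 ± 0.43 in WT; SD, n = 3). That of miR-19b to miR-17 had a difference of −1.11 (−4.48 ± 1.53 in R719W, −3.37 ± 0.23 in WT; SD, n = 3). By two-sided exact permutation tests, adjusted by Benjamini-Hochberg over 6 ratios, p was 0.6 for both of these and for miR-20a to miR-17 and miR-25 to miR-93. It was 1 for miR-93 to miR-106b and miR-25 to miR-106b. Before adjustment the smallest p was 0.2, and 3 against 3 libraries allow none below 0.1. With all 6 libraries, the genotypes overlapped in each of the 6 ratios. Without R719W replicate 1, they no longer overlapped in 4 of the 6. In R719W replicates 2 and 3, miR-20a to miR-17 and miR-19b to miR-17 then lay below all WT libraries, with log2 differences of −0.24 and −1.99. miR-93 to miR-106b and miR-25 to miR-106b lay above them, with differences of 0.50 and 0.36. The exact permutation p of each of these 4 was 0.2 (0.3 adjusted over the 6 ratios), and 2 against 3 libraries allow none smaller. Ratios that share a member are also not independent. With any other library left out, the genotypes did not overlap in 0 or 1 of the 6 ratios. Without R719W replicate 3, the difference of miR-19b to miR-17 was −0.61.

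**Figure D5:**
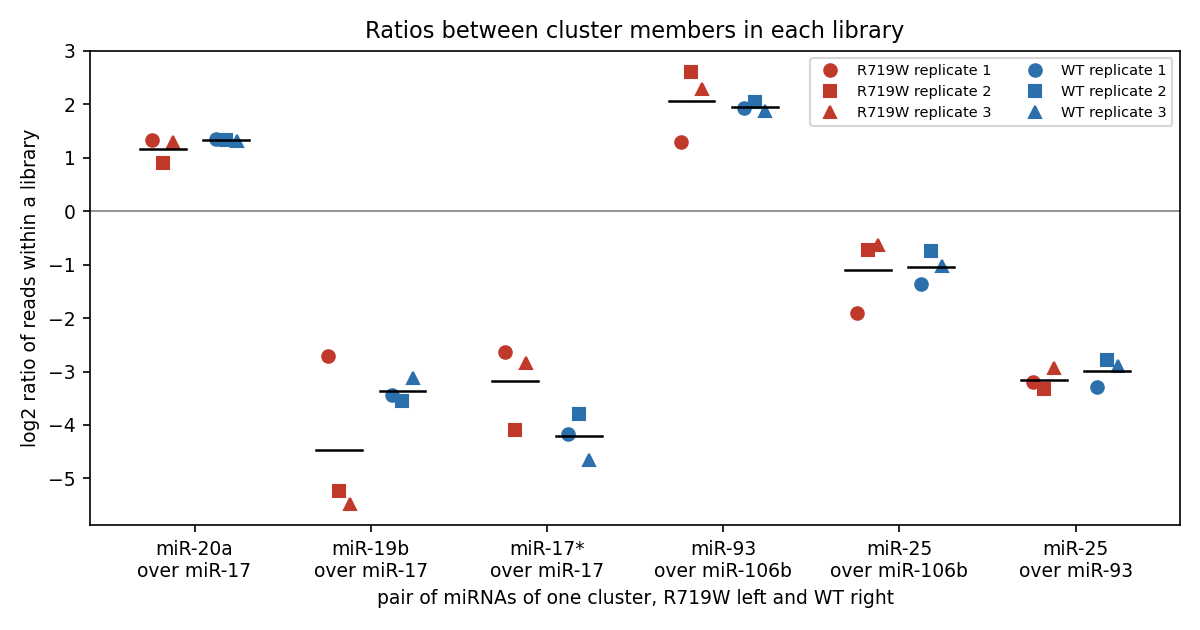
Log2 ratio of reads of 2 miRNAs within each library, R719W left and WT right, with the mean as a bar; points are libraries. The R719W libraries spread more widely than WT for miR-93 over miR-106b, 1.30 to 2.60 against 1.88 to 2.04, and with all 6 libraries the genotypes overlap for every pair.

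As counted, the rest of the clusters was close to the limit of detection. Of 14 other listed entries of these clusters and of their paralogue on chromosome X, the miR-106a-363 cluster, 7 had a read and 0 were tested. The most abundant was miR-18a, of the miR-17-92 cluster, with 10, 14 and 8 reads in R719W and 5, 6 and 6 reads in WT. In a fit without the filter on low counts it had a log2 fold change of 0.44 (SE 0.50; edgeR adjusted p = 0.573). miR-92a, which is cut from the last hairpin of the same precursor and also from the hairpin Mir92-2 on chromosome X, shares the seed of miR-25. It had 1, 4 and 3 reads in R719W and 2, 1 and 2 reads in WT. miR-19a, which shares the seed of miR-19b, had 3, 1 and 0 reads in R719W and 4, 3 and 2 reads in WT. Over all libraries, miR-92a and miR-19a had 13 reads each, against 2766 for miR-20a. Such differences between sequences also depend on how readily each enters the library.

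miR-17 differs from miR-106a of chromosome X by the single substitution T10A and the sources used here do not say how a read close to both was counted. miR-106a had 1 read in all 6 libraries and miR-20b had 2, and the other 3 listed entries of that cluster had none. As counted, 99.9% to 100% of the reads with the seed AAAGTGC in a library were assigned to the 4 members that carry it. Their seed group summed to 876, 1647 and 1264 CPM in R719W replicates 1, 2 and 3, against 1671, 1371 and 1762 CPM in WT. On that scale, R719W replicates 1 and 3 lay below the WT libraries and R719W replicate 2 among them. As deposited CPM, the same sums were 833, 1762 and 1548 in R719W and 1510, 1468 and 1463 in WT, so that R719W replicate 1 lay below and R719W replicates 2 and 3 above every WT library.

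Among the other tested miRNAs, the log2 levels most like the mean profile of the members over the 6 libraries were those of miR-107, miR-149 and miR-151-5p. Their root mean square differences from that profile were 0.0949, 0.103 and 0.128 on the log2 scale, against a median of 0.450 for all tested miRNAs outside the clusters. The members themselves differed from it by 0.179 (miR-20a) to 0.779 (miR-19b). miR-19b and miR-17*, the latter at 0.589, lay farther from it than that median. The mean profile is thus not one that all members share. The 6 libraries share the scaling that sets part of such likeness. miR-107 averaged 52.2 ± 7.60 CPM in R719W and 73.9 ± 10.5 CPM in WT (SD, n = 3). Its libraries did not overlap between genotypes (edgeR log2 fold change −0.49, SE 0.22, adjusted p = 0.130).

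Blood cells also carry these clusters, so the levels of their markers are given beside the members. The 3 erythroid miRNAs (miR-144, miR-451 and miR-486) summed to 1361 to 2570 CPM in R719W and to 1966 to 3301 CPM in WT, and 0 of the 3 passed by edgeR. They were highest among the R719W libraries in replicate 1. Of the R719W libraries, replicate 1 was the lowest for miR-17, miR-20a, miR-25 and miR-93 and the highest for miR-106b and miR-19b. The 6 leukocyte miRNAs, none of them at 0, summed to 1074 to 1405 CPM in R719W and to 870 to 1007 CPM in WT. Among the R719W libraries this sum was also highest in replicate 1. By edgeR, 2 of the 5 tested fell, mmu-miR-150 and mmu-miR-342-3p. The most abundant, mmu-miR-142-3p, had a log2 fold change of 0.64 (SE 0.21; edgeR adjusted p = 0.0625). The part of either cell type in the members' levels was not tested.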

How the data were processed

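Small-RNA libraries of 6 left ventricles were analysed from 2 tables, 1 per genotype. Per the file headers, the authors deposited whole-number read counts per mature miRNA and library, and a normalized value, which is the count as CPM of the reads on listed miRNAs. Per the labels' protocols, a miRNA isolation kit was used and libraries were multiplexed. Aligner, mismatches, annotation release and build: not given in the sources used here. A barcode in header and description tied each column to its sample.

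The count test was run with edgeR 4.0.16 (R 4.3.3): filterByExpr (minimum count 10, total 15), which kept 181 miRNAs and all 7 members, TMM scaling (factors 0.83 to 1.22), glmQLFit and glmQLFTest on genotype (two-sided), adjusted by Benjamini-Hochberg over all tested miRNAs. SE is |log2 fold change| divided by √F. DESeq2 1.42.0 and limma 3.58.1 (log2 of CPM plus 1, 0.5 or 10) were alternatives. The fit was also run on counts simulated with the same dispersion for all miRNAs and no outlying library. That run does not address the effect of R719W replicate 1. Named miRNAs were the 7 members, other entries of the clusters, entries sharing a seed and the 3 closest profiles. Members and lists were chosen with earlier results of these data known. Within a genotype, each pair of libraries differed beyond sampling noise (chi-square per degree of freedom 35.8 to 350). Sequences and positions come from RefSeq (GRCm38.p6) and GENCODE M21.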

Additional observations from a re-analysis of the deposited data

How the results depend on the processing

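Of 109 fold changes of members under alternatives, 104 kept their direction and their side of an adjusted p of 0.05, 4 became calls and 1 turned, miR-93 with library totals alone (0.0079). The 4 were miR-20a without R719W replicate 2, and miR-19b without R719W replicate 1 (−2.001), without a filter on low counts (−1.39, edgeR adjusted p = 0.00681) and with the replicate block (−1.33, edgeR adjusted p = 0.0137). The number of members called was accordingly 1 with the replicate block and 1 without a filter, and 0 to 1 with a library left out; with at least 100 reads in 3 libraries only 4 members were tested. The adjusted p of miR-19b ranged from 0.00134 to 0.256. Same-numbered libraries of the genotypes did not deviate together (correlations −0.18, −0.38 and −0.0004 for numbers 1, 2 and 3), and no library correlated best with its own number, so the numbers are not taken to pair them. The block moved the calls over all miRNAs to 30, against 36. All calls numbered 20 with totals without the 5 most abundant miRNAs, 22 with at least 100 reads in 3 libraries, and 4 to 56 with a library left out (without R719W replicates 1, 2 and 3: 56, 40 and 7; without WT replicates 1, 2 and 3: 4, 20 and 4). Higher and lower calls were 12 and 15 under DESeq2's size factors, 34 and 3 when only library totals were used, and 28 and 2 by limma with a pseudocount of 1. Of 42 ratio differences under alternatives, 38 kept their direction. With a library left out, miR-25 over miR-106b ranged from −0.27 to 0.36, miR-93 over miR-106b from −0.16 to 0.50, miR-19b over miR-17 from −1.99 to −0.61, miR-20a over miR-17 from −0.24 to −0.029, miR-25 over miR-93 from −0.31 to −0.057 and miR-17* over miR-17 from 0.75 to 1.48. The spread without R719W replicate 1 was added after seeing the data. Depth limits miR-19b and miR-17*, with 86 and 92 reads over all libraries.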

Other observations

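The order of the 2 rarest members was chosen for mention after their values were seen, and was not tested. miR-17* had more reads than miR-19b in each R719W library, with miR-19b at 0.941, 0.450 and 0.160 times miR-17* in R719W replicates 1, 2 and 3. In WT the order was the other way round, with miR-19b at 1.67, 1.18 and 2.90 times miR-17* in WT replicates 1, 2 and 3. The ratio does not depend on the scaling of the libraries, and rests on 4 to 29 reads of miR-19b and 9 to 25 reads of miR-17* per library. miR-19b reached the filter on low counts in 3 WT libraries and 1 R719W library, and miR-17* in 3 R719W and 2 WT libraries. A reversed order of miR-19b and miR-17* may thus be in part built into that choice. Both come from the miR-17-92 precursor, miR-19b also from a hairpin on chromosome X.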
